A study of Mus musculus with 12 samples.

Results

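Chemokine receptors are the G protein-coupled receptors through which leukocytes sense chemokine gradients. The 7 genes described here are Ccr2, Ccr7, Cxcr3, Cxcr4, Cxcr6, Cx3cr1 and Ccrl2, and they were taken by gene symbol from a deposited table of 55487 features. All 7 symbols were found, each as 1 feature. A filter on low values (log2 CPM above 0 in at least 4 samples, where CPM are reads scaled to the library total) kept 12364 features, among them 5 of the 7 receptors: Ccr2, Ccr7, Cxcr3, Cxcr6 and Ccrl2. Cxcr4 and Cx3cr1 did not pass and are described from their reads.

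The samples were mouse natural killer (NK) cells, lymphocytes that kill target cells and secrete interferon gamma. All came from strain B6.129S4-Ifngtm3.1Lky/J with genotype mut/mut, in which the gene for interferon gamma also drives the fluorescent protein YFP, and all were primed with IL-15 (given as HD IL-15 in the labels). There were 3 groups of 4 samples each, with the replicate labels f2, m2, m3 and m4 in every group. The first group was left unstimulated. The other 2 received an anti-NK1.1 antibody, which engages an activating surface receptor, for 6 h, and were then sorted on the reporter as YFP- or YFP+ cells. The comparisons ask how receptor RNA differed after stimulation and between cells that did and did not switch on the reporter. For the unstimulated group the sample titles name no reporter sort, and no time is given. In comparisons with it, stimulation, sorting on YFP and any difference in time cannot be told apart. YFP marks reporter activity, not secreted interferon gamma, and the labels do not give the age of the mice, the organ of origin, or whether a replicate label stands for 1 mouse. P-values measure the spread between these samples, which may in part be technical.

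Chemokine receptors couple to inhibitory G proteins, whose freed beta-gamma subunits activate phosphoinositide 3-kinase gamma and Rac and so drive directed movement. After ligand binding, receptor kinases and arrestins shut the signal off and take the receptor into the cell. In NK cells, Ccr2 and Cxcr3 are known for entry into inflamed tissue, Ccr7 for entry into lymph nodes, Cxcr6 for residence in the liver, Cx3cr1 for the mature circulating subset, and Cxcr4 for retention in bone marrow.

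Library totals ran from 32.1 to 54.2 M reads (M for mega), so that 3 reads corresponded to 0.0553 to 0.0933 CPM. Ribosomal RNA-like features took 27.4 to 35.3% of the reads in unstimulated samples, 15.9 to 30.3% in YFP- samples and 13.7 to 29.8% in YFP+ samples. Leaving them out of the totals changed none of the 15 calls for the 5 tested receptors, and its part in the results beyond that was not tested. NK cell markers were present in every library, with a summed level of the 10 markers of 13398 to 16066 CPM in unstimulated, 9489 to 11999 CPM in YFP- and 10077 to 14041 CPM in YFP+ libraries. Gzma, Prf1 and Nkg7 led that sum. Of the 10 markers 2 were called higher and 6 lower against unstimulated cells, in YFP- and in YFP+ cells alike. Of all tested genes 30.2% and 27.5% were called higher and 20.9% and 33.3% lower there. Klrb1c fell most, averaging 308 CPM in unstimulated, 75.3 CPM in YFP- and 6.50 CPM in YFP+ samples. The 6 B cell markers summed to at most 4.38 CPM and the 6 neutrophil markers to at most 1.82 CPM in any library. In bulk RNA, fewer cells that make a transcript and less transcript per cell cannot be told apart.

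The receptor RNAs differed widely in level. Levels of different genes were compared as CPM per kilobase of annotated exon, which depends on the annotation. In unstimulated cells the order was Ccr2 at 31.7 ± 0.770, Cxcr6 at 26.2 ± 4.08, Cxcr3 at 19.5 ± 5.33 and Ccrl2 at 5.01 ± 0.503 CPM per kb (mean ± SD, n = 4). Ccr7 at 0.505 ± 0.171, Cxcr4 at 0.425 ± 0.147 and Cx3cr1 at 0.0787 ± 0.0582 CPM per kb were far lower. The ranges of Ccr2 and Cxcr6, of Cxcr6 and Cxcr3, and of Ccr7 and Cxcr4 overlapped between neighbours in this order.

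After stimulation Cxcr6 stood first in both sorted populations. In YFP- cells Cxcr6 was at 61.6 ± 7.17 CPM per kb, followed by Ccr2 at 14.9 ± 3.47, Ccrl2 at 11.0 ± 2.10, Cxcr3 at 2.10 ± 0.690 and Ccr7 at 1.35 ± 0.495 CPM per kb. The ranges of Ccr2 and Ccrl2, and of Cxcr3 and Ccr7, overlapped there. In YFP+ cells the order was Cxcr6 at 22.9 ± 8.84, Ccrl2 at 7.19 ± 2.24, Ccr2 at 5.86 ± 1.09, Ccr7 at 0.859 ± 0.306 and Cxcr3 at 0.308 ± 0.0732 CPM per kb, where Ccrl2 and Ccr2 overlapped. Cxcr3 thus stood below Ccr7 in all 4 YFP+ samples, whereas it had been far above Ccr7 in unstimulated cells. Cxcr4 and Cx3cr1 took the last places in every group, and their ranges overlapped in both stimulated groups.

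**Figure D1:**
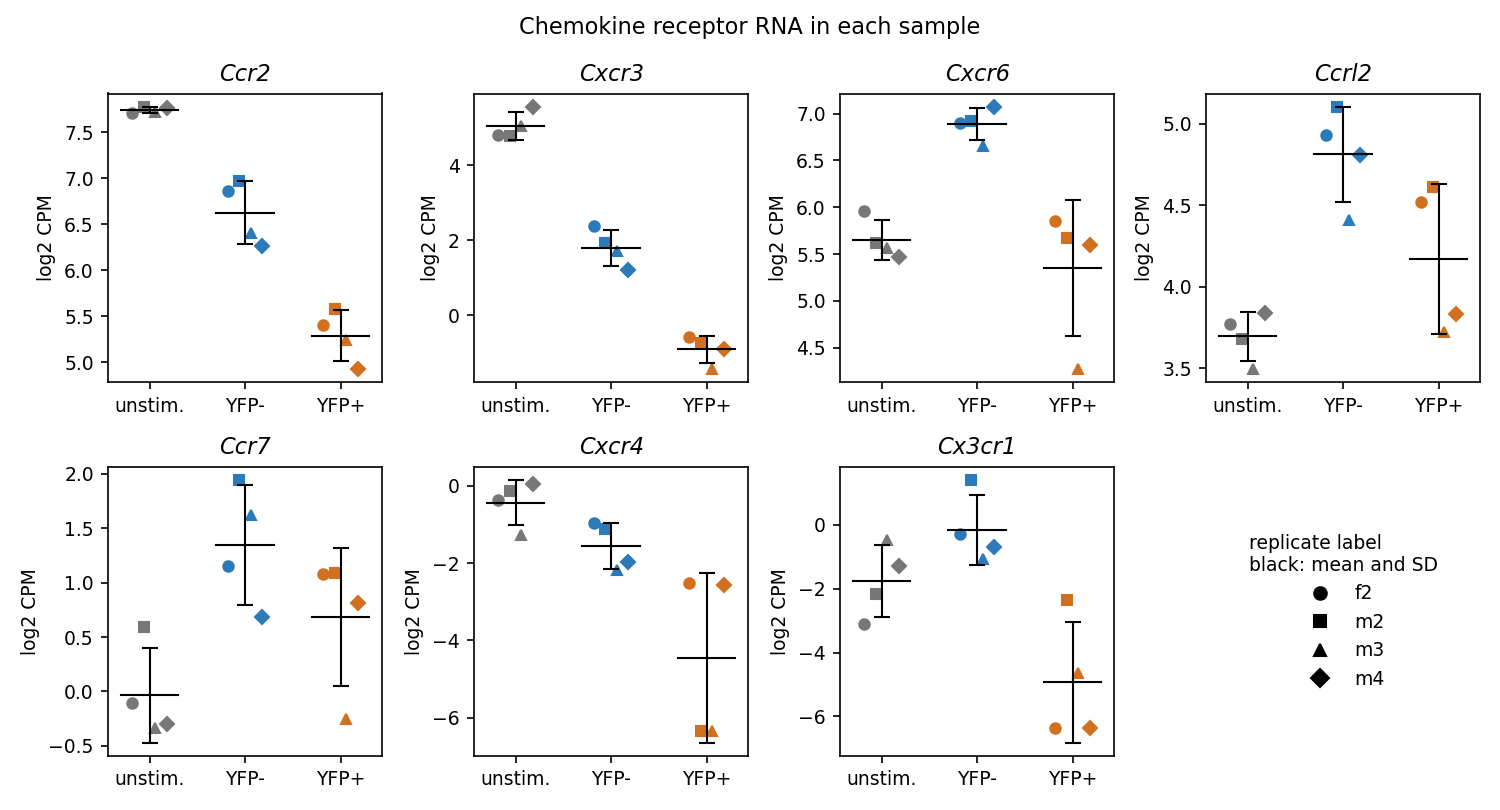
Log2 CPM (y axis) of each receptor in each of the 12 samples, by group (x axis); symbols mark the replicate label, and black bars the mean and SD of 4 samples. Ccr2 and Cxcr3 stepped down from unstimulated to YFP- to YFP+ without overlap. Cxcr6, Ccrl2, Ccr7 and Cx3cr1 were highest on average in YFP-, and Cxcr4 and Cx3cr1 were lowest on average in YFP+.

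**Figure D2:**
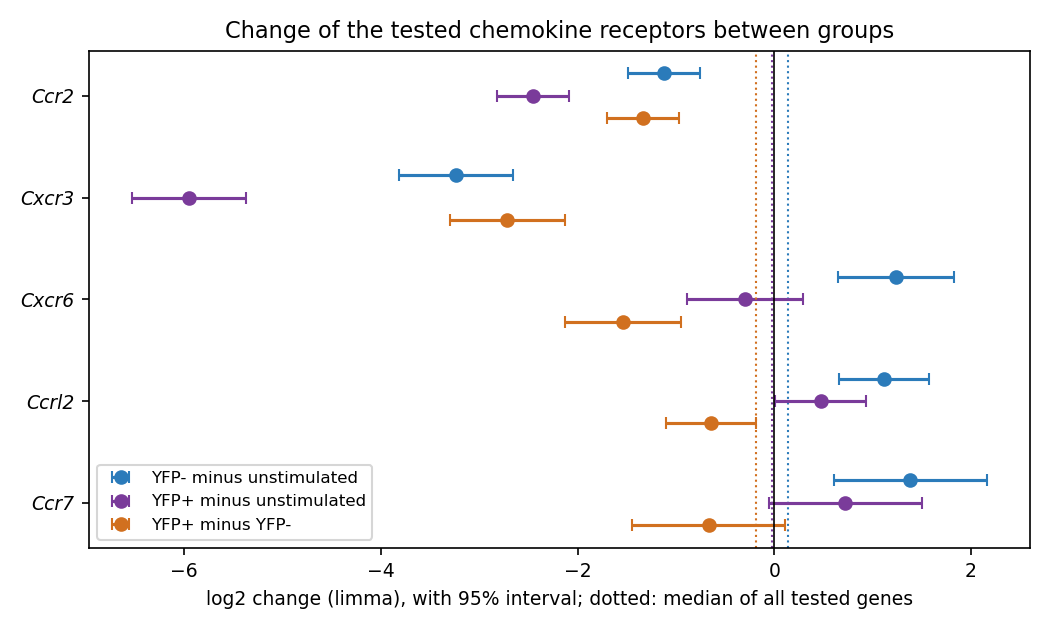
Log2 change of the 5 tested receptors (x axis, limma) with 95% intervals, for the 3 comparisons between groups; dotted lines give the median of all 12364 tested genes, at 0.14, -0.03 and -0.19. All 5 intervals of YFP- minus unstimulated exclude 0, and all 5 points of YFP+ minus YFP- lie below 0, with the Ccr7 interval reaching past it.

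In stimulated YFP- cells against unstimulated cells, Ccr7, Ccrl2 and Cxcr6 rose and Ccr2 and Cxcr3 fell. All 5 tested receptors passed an adjusted p of 0.05 (limma, Benjamini-Hochberg over all tested genes), 3 higher and 2 lower, where 51.1% of all tested genes passed, 30.2% higher and 20.9% lower. The median log2 change of the 5 was 1.12, against 0.14 for all tested genes. In YFP+ cells against unstimulated cells, 2 of the 5, Ccr2 and Cxcr3, passed, both lower, where 60.8% of all genes passed, 27.5% higher and 33.3% lower. Their median was -0.30, against -0.03. Between the sorted populations, Ccr2, Cxcr3, Cxcr6 and Ccrl2 were lower in YFP+ than in YFP- cells and none was higher, where 21.8% of all genes passed, 3.28% higher and 18.5% lower. Their median was -1.33, against -0.19. Comparisons share samples: the first 2 share the unstimulated group, and each sorted group enters 2 of the 3.

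The split of calls over all genes depended on how libraries were scaled. From YFP- to YFP+ 15.1% of the called genes were higher with the deposited scaling, 41.0% after trimmed-mean scaling and 50.2% after centring on the median gene. From unstimulated to YFP+ that share was 45.2%, and 36.8% with ribosomal RNA-like features left out of the totals. From unstimulated to YFP- it was 59.1%, against 49.9% after centring and 47.1% without ribosomal RNA-like features. Trimmed-mean scaling moved the all-gene median from -0.19 to 0.00 in YFP+ minus YFP- and from 0.14 to 0.02 in YFP- minus unstimulated. The directions of the 15 receptor changes were the same under all of these scalings.

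Ccr2 binds Ccl2, Ccl7 and Ccl12, and lies on mouse chromosome 9 (chr9:124101950-124113557, + strand, GENCODE M21 on GRCm38). Its log2 CPM was 7.71, 7.78, 7.72 and 7.77 in unstimulated samples f2, m2, m3 and m4. It was 6.86, 6.97, 6.41 and 6.26 in the YFP- samples and 5.41, 5.58, 5.24 and 4.93 in the YFP+ samples. The 3 groups did not overlap, and the unstimulated samples lay closest together.

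Mean Ccr2 was 214 ± 5.21 CPM in unstimulated, 101 ± 23.5 CPM in YFP- and 39.6 ± 7.34 CPM in YFP+ samples (SD, n = 4 each). The log2 change was -1.12 (SE 0.17, limma adjusted p = 0.00013) from unstimulated to YFP- and -2.45 (SE 0.17, limma adjusted p = 5.6e-08) from unstimulated to YFP+. Between YFP- and YFP+ it was -1.33 (SE 0.17, limma adjusted p = 0.00013), a level 2.54-fold lower. Chemokine receptor genes can share near-identical stretches, where reads cannot be assigned to 1 gene with certainty. Of 6734 windows of 75 bases in Ccr2 transcripts, 78 (1.16%) were found unchanged in another gene. Ccr2 is also a monocyte gene: the 7 monocyte or macrophage markers summed to 18.3 to 23.1 CPM in unstimulated, 8.20 to 15.0 CPM in YFP- and 6.10 to 12.5 CPM in YFP+ samples, mostly Ly6c2, which NK cells also make. The defining marker Adgre1 (F4/80) averaged 0.00771, 0.00510 and 0 CPM in the same order. Lyz2 averaged 0.505, 0 and 0.0147 CPM, and Cd14 1.24, 0.718 and 0.322 CPM. Of the 2 monocyte or macrophage markers tested, 1 was called lower in YFP- and 2 in YFP+ cells against unstimulated cells, and 0 higher. Of all tested genes 20.9% and 33.3% were called lower there. The part of such cells in the Ccr2 result was not tested.

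Cxcr3 binds the interferon-induced chemokines Cxcl9, Cxcl10 and Cxcl11, and lies on the X chromosome (chrX:101731535-101734269, - strand). Its fall was the largest among the tested receptors in both comparisons with unstimulated cells. Because of that, the stretch before its start is shown, ending at the last base before the annotated first exon (chrX:101734270-101734397, - strand, RefSeq on GRCm38.p6, 128 bases). Capitals mark any match to 5 motifs searched on both strands: TGANTCA (AP-1), GGGNNNNNCC (NF-kappaB), GGAAA (NFAT), GGTGTGA (T-box) and TGTGGT (Runx).
Cxcr3: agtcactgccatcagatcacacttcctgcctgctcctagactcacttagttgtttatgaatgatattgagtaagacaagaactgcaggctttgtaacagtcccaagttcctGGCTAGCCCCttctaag
The 1 match shown is to GGGNNNNNCC, and a match to TGTGGT lies within the annotated exon, outside the stretch shown. Of 32851 RefSeq windows of 250 bases before a start, 45.8% hold GGGNNNNNCC, 14.0% TGTGGT, 55.6% GGAAA, 6.75% TGANTCA and 3.33% GGTGTGA, so that matches to GGGNNNNNCC and GGAAA are common. A match describes the letters only.

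Cxcr3 log2 CPM was 4.81, 4.77, 5.03 and 5.56 in the unstimulated samples f2, m2, m3 and m4. It was 2.37, 1.92, 1.72 and 1.21 in YFP- samples and -0.59, -0.73, -1.43 and -0.89 in YFP+ samples. The groups were separated by more than 2 log2 units between unstimulated and YFP- and did not overlap at the second step either. The level fell from 33.8 ± 9.23 CPM in unstimulated cells to 3.63 ± 1.19 CPM in YFP- cells and 0.533 ± 0.127 CPM in YFP+ cells (SD, n = 4), where 13 to 32 reads per library remained.

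The log2 change of Cxcr3 was -3.24 (SE 0.27, limma adjusted p = 8.3e-07) in YFP- and -5.95 (SE 0.27, limma adjusted p = 1.6e-09) in YFP+ cells against unstimulated cells. The ratio of mean CPM was 9.31-fold lower in YFP- and 63.4-fold lower in YFP+ cells. YFP+ cells were 6.81-fold lower than YFP- cells, a log2 change of -2.71 (SE 0.27, limma adjusted p = 2.4e-05).

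Cxcr6 binds Cxcl16 and lies inside the gene Fyco1 on the opposite strand (chr9:123806475-123811760, + strand), with no exon base shared between them. It is shown with Ccrl2 because both were highest on average in YFP- cells, as the lower Ccr7 and Cx3cr1 also were. Ccrl2 (chr9:111054486-111057519, - strand) is an atypical receptor that binds chemerin, the product of Rarres2, and is not known to signal through G proteins. The stretches before their starts are chr9:123806227-123806474 (+ strand) for Cxcr6 and chr9:111057520-111057768 (- strand) for Ccrl2, with the same motifs in capitals.
Cxcr6: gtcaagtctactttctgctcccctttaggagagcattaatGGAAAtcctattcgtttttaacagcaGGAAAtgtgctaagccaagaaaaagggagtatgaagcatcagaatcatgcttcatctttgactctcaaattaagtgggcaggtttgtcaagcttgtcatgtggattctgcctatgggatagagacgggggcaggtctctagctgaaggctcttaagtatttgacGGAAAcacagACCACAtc
Ccrl2: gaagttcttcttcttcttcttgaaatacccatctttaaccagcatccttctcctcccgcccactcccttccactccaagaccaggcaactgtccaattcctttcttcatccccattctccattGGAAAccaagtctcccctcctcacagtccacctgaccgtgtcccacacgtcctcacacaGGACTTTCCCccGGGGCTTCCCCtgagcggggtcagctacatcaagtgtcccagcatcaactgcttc
The Cxcr6 stretch holds 3 matches to GGAAA and 1 to TGTGGT. In the Ccrl2 stretch, overlapping matches to GGGNNNNNCC on both strands lie between 68 and 46 bases before the start, and 1 of its 2 GGAAA matches overlaps them. Neither stretch holds TGANTCA or GGTGTGA, and the 2 share no motif other than GGAAA. Ccrl2 has 3 RefSeq starts, and the stretch shown belongs to start 1. The windows of starts 2 and 3 each hold 1 match to GGTGTGA and 0 to GGGNNNNNCC. That match to GGTGTGA lies within the annotated gene, outside the stretch shown. RefSeq windows were given for 6 of the 7 receptors.

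Cxcr6 log2 CPM was 5.96, 5.61, 5.56 and 5.47 in unstimulated samples f2, m2, m3 and m4, and 6.90, 6.92, 6.66 and 7.07 in YFP- samples. In YFP+ samples it was 5.86, 5.67, 4.27 and 5.60. Every YFP- sample lay above every sample of the other 2 groups, while the unstimulated and YFP+ groups overlapped. The YFP+ m3 library lay 1.33 below the next YFP+ library.

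Mean Cxcr6 was 50.6 ± 7.87, 119 ± 13.9 and 44.2 ± 17.1 CPM in unstimulated, YFP- and YFP+ samples (SD, n = 4). The log2 change from unstimulated to YFP- was 1.24 (SE 0.28, limma adjusted p = 0.0021), and from YFP- to YFP+ -1.54 (SE 0.28, limma adjusted p = 0.0014). From unstimulated to YFP+ the change was -0.30 (SE 0.28, limma adjusted p = 0.37), with a 95% interval from -0.89 to 0.29, and 2 of 4 same-label differences were positive. Without the YFP+ m3 library this change was 0.06, with the opposite sign and still no call (limma adjusted p = 0.73, and 0.0813 to 0.869 over all alternatives).

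Cxcr6 is also a gene of type 1 innate lymphoid cells (ILC1). Of the 5 ILC1 markers 4 were tested. From unstimulated to YFP- 2 of them rose and 1 fell, where 30.2% of all tested genes were called higher and 20.9% lower. From YFP- to YFP+ all 4 fell, where 18.5% of all tested genes were called lower. The summed level of the 5 markers was 35.1 to 44.9 CPM in unstimulated, 46.1 to 71.1 CPM in YFP- and 23.3 to 28.4 CPM in YFP+ samples. The ILC1 marker Il7r was at 0 reads in 3 of 4 YFP+ libraries, and no ILC1 marker was at 0 in all libraries of a group. The part of such cells in the Cxcr6 result was not tested.

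Ccrl2 log2 CPM was 3.77, 3.68, 3.50 and 3.84 in unstimulated samples f2, m2, m3 and m4. It was 4.93, 5.10, 4.41 and 4.81 in YFP- samples and 4.52, 4.61, 3.72 and 3.83 in YFP+ samples. The unstimulated and YFP- groups did not overlap. The YFP+ samples spread over both, with m3 and m4 inside the unstimulated range and f2 and m2 inside the YFP- range.

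From unstimulated to YFP- Ccrl2 rose 2.19-fold, from 13.0 ± 1.31 to 28.5 ± 5.47 CPM (SD, n = 4), a log2 change of 1.12 (SE 0.21, limma adjusted p = 0.00074). YFP+ cells were at 18.7 ± 5.81 CPM, a log2 change of -0.64 against YFP- (SE 0.21, limma adjusted p = 0.047), lower in 4 of 4 same-label differences. This call was lost whichever replicate label was left out, after trimmed-mean scaling and under several other alternatives, with limma adjusted p from 0.0139 to 0.232 over all of them, and the exact permutation test gave p = 0.0857. Against unstimulated cells the YFP+ log2 change was 0.47 (SE 0.21, limma adjusted p = 0.070, exact permutation p = 0.143). It passed after trimmed-mean scaling at 0.55 (limma adjusted p = 0.0143) and without the YFP+ m3 library at 0.62 (limma adjusted p = 0.0176), within a range of 0.00594 to 0.282 over all alternatives.

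Ccr7, the receptor for Ccl19 and Ccl21 (chr11:99144196-99155077, - strand), was near the filter, with 26 to 189 reads per library. Its log2 CPM was -0.10, 0.60, -0.34 and -0.30 in unstimulated samples f2, m2, m3 and m4, 1.15, 1.94, 1.62 and 0.68 in YFP- samples, and 1.08, 1.09, -0.25 and 0.81 in YFP+ samples. Every YFP- sample lay above every unstimulated sample, narrowly for YFP- m4 and unstimulated m2, and the YFP+ group overlapped both. The YFP+ m3 library was again the lowest of its group.

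Mean Ccr7 was 0.999 ± 0.339, 2.67 ± 0.979 and 1.70 ± 0.606 CPM (SD, n = 4). The log2 change from unstimulated to YFP- was 1.39 (SE 0.36, limma adjusted p = 0.0058). From unstimulated to YFP+ it was 0.72 (SE 0.36, limma adjusted p = 0.10, exact permutation p = 0.0857), positive in 4 of 4 same-label differences, and without the YFP+ m3 library it was 1.03 (limma adjusted p = 0.0139, against 0.0139 to 0.316 over all alternatives). Between YFP- and YFP+ the change was -0.67 (SE 0.36, limma adjusted p = 0.21), with a 95% interval from -1.44 to 0.11, so a difference could not be shown. Ccr7 is also a gene of mature dendritic cells. The 6 dendritic cell markers summed to 83.5 to 102 CPM in unstimulated, 38.9 to 53.6 CPM in YFP- and 14.5 to 23.9 CPM in YFP+ samples, led by H2-Ab1, which fell in both stimulated groups, while Siglech was at 0 reads in all unstimulated and YFP+ libraries and Clec9a in all YFP+ libraries. Of the 3 dendritic cell markers tested, 2 rose with Ccr7 from unstimulated to YFP-, where 30.2% of all tested genes were called higher. Zbtb46, a dendritic cell transcription factor, went from 1.57 to 15.6 CPM (log2 change 3.30, limma adjusted p = 1.3e-07) and was at 8.84 CPM in YFP+ cells. H2-Aa went from 2.37 to 4.50 CPM (log2 change 1.16, limma adjusted p = 0.041) and was at 0.593 CPM in YFP+ cells. Their part in the Ccr7 result was not tested.

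Cxcr4, the receptor for Cxcl12 (chr1:128588199-128592293, - strand), was found at 29, 34, 16 and 33 reads in unstimulated samples f2, m2, m3 and m4. It had 22, 22, 9 and 12 reads in YFP- samples and 8, 0, 0 and 5 reads in YFP+ samples. All 4 YFP+ libraries lay below every other library, and the unstimulated and YFP- groups overlapped. The libraries with 0 reads allow up to 0.0553 CPM (m2) and 0.0829 CPM (m3). Floors cover counting error only.

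Mean Cxcr4 was 0.768 ± 0.266 CPM in unstimulated, 0.349 ± 0.144 CPM in YFP- and 0.0798 ± 0.0922 CPM in YFP+ samples. YFP+ cells were 9.63-fold lower than unstimulated cells and 4.37-fold lower than YFP- cells by mean CPM, both with p = 0.0286 in a two-sided exact permutation test, the smallest that 4 against 4 samples can give. Without the YFP+ f2 library, which held 8 of the group's 13 reads, these folds were 14.8 and 6.72. Across 37074 features without the filter, limma gave adjusted p = 0.0013 and 0.0502 for these comparisons, where 23.1% and 6.14% of features passed. From unstimulated to YFP- the difference in mean log2 CPM was -1.13 (exact permutation p = 0.0857, and unfiltered limma adjusted p = 0.49, where 16.9% of features passed). In all 9 exact permutation tests were used, and their p-values are unadjusted.

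Cx3cr1 binds membrane-bound Cx3cl1 (chr9:119901616-120069879, - strand). Its annotated span holds or overlaps 9 other genes, and 78 of its 4505 exon bases are shared with the antisense gene Gm33858; whether counting used strand is not given in the sources used here. It had 4, 8, 28 and 13 reads in unstimulated samples f2, m2, m3 and m4, 36, 130, 20 and 30 reads in YFP- samples, and 0, 10, 1 and 0 reads in YFP+ samples. The YFP- m2 library stood well above the others, and the YFP+ m2 library held 10 of the 11 reads of its group. YFP+ libraries did not overlap with YFP- libraries but did with unstimulated ones.

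Mean Cx3cr1 was 0.355 ± 0.262, 1.13 ± 1.01 and 0.0530 ± 0.0885 CPM in unstimulated, YFP- and YFP+ samples. YFP+ cells were 21.3-fold lower than YFP- cells by mean CPM (exact permutation p = 0.0286). The size of this fold rested on single libraries, being 11.9 without YFP- m2 and 123 without YFP+ m2. Against unstimulated cells the YFP+ difference in mean log2 CPM was -3.17 (exact permutation p = 0.0571), and the YFP- difference was 1.60 (exact permutation p = 0.114). Unfiltered limma adjusted p-values for these were 0.0019, 0.012 and 0.28 in the same order, and over all alternatives the p-values ran from 0.0019 to 0.0286, from 0.012 to 0.0571 and from 0.114 to 0.285.

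Several markers of other lymphocytes, picked here after their values were seen, were also lowest on average in YFP+ samples. From unstimulated to YFP- samples the means of Cd3e, Trat1 and Rora were higher, as was that of Cx3cr1, and those of Il7r and Cxcr4 were lower. The T cell markers Cd3e, a subunit of the T cell receptor complex, and Trat1 averaged 0.529 and 0.960 CPM in unstimulated, 0.915 and 1.54 CPM in YFP- and 0.0363 and 0.0378 CPM in YFP+ samples. The ILC markers Il7r and Rora were at 1.50 and 10.7, 1.37 and 22.8, and 0.0414 and 3.0 CPM in that order. The whole T cell list of 8 markers did not follow, with 119 to 167 CPM in unstimulated, 140 to 228 CPM in YFP- and 189 to 295 CPM in YFP+ samples, led by Cd28. The 6 markers of other ILCs summed to 46.5 to 51.1, 55.0 to 99.0 and 20.7 to 56.7 CPM, with Il22 at 0 reads in all unstimulated and YFP+ libraries. Going the other way, Cd5 of the T cell list and Il1rl1 of the ILC list were highest on average in YFP+ samples. They averaged 0.0576 and 0.0651 CPM in unstimulated and 0.825 and 1.30 CPM in YFP+ samples. No T cell marker was at 0 in all libraries of a group. The part of such cells in the Cxcr4 and Cx3cr1 values was not tested.

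**Figure D3:**
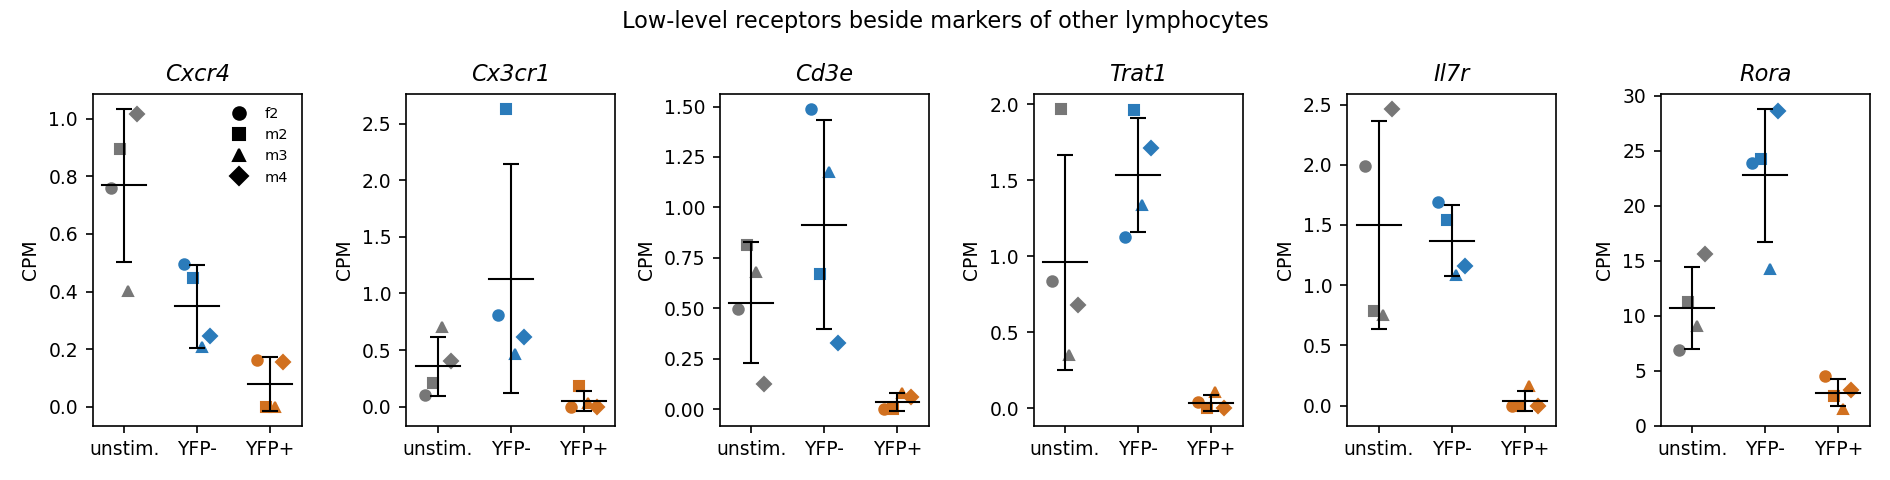
CPM (y axes) of Cxcr4 and Cx3cr1 beside 4 markers of other lymphocytes, in each of the 12 samples by group; symbols mark the replicate label, and black bars the mean and SD. In YFP+ samples the highest Cxcr4 value was 0.163 CPM and the highest Cx3cr1 value 0.184 CPM, and Cd3e, Trat1 and Il7r were below 0.17 CPM. The 4 markers were picked after their values were seen, and Cd28, Cd5 and Il1rl1 of the same lists were highest on average in YFP+ samples.

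Ratios between receptors within 1 sample do not depend on how libraries are scaled. These pairs were chosen after their values were seen, so the ratios are a description. The log2 ratio of Cxcr6 to Ccr2, per kb, was -0.29 ± 0.24 before stimulation, 2.07 ± 0.39 in YFP- samples and 1.87 ± 0.73 in YFP+ samples (SD, n = 4). It ran from -0.49 to 0.06 in unstimulated samples, and from 0.83 to 2.62 over the 8 stimulated samples, with its lowest value in the YFP+ m3 library. Cxcr6 and Ccr2 thus changed places between unstimulated and stimulated groups, and their ratio did not separate the sorted populations.

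The log2 ratio of Ccr2 to Cxcr3 was 0.73 ± 0.36 in unstimulated samples, 2.86 ± 0.28 in YFP- samples and 4.27 ± 0.39 in YFP+ samples, with no overlap between groups. That of Cxcr6 to Cxcr3 was 0.45 ± 0.53, 4.93 ± 0.56 and 6.14 ± 0.36, and its YFP+ range of 5.59 to 6.36 overlapped the YFP- range of 4.37 to 5.71. Summed over the 7 receptors, the level was 314 ± 9.12 CPM in unstimulated, 256 ± 33.9 CPM in YFP- and 105 ± 26.5 CPM in YFP+ samples.

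**Figure D4:**
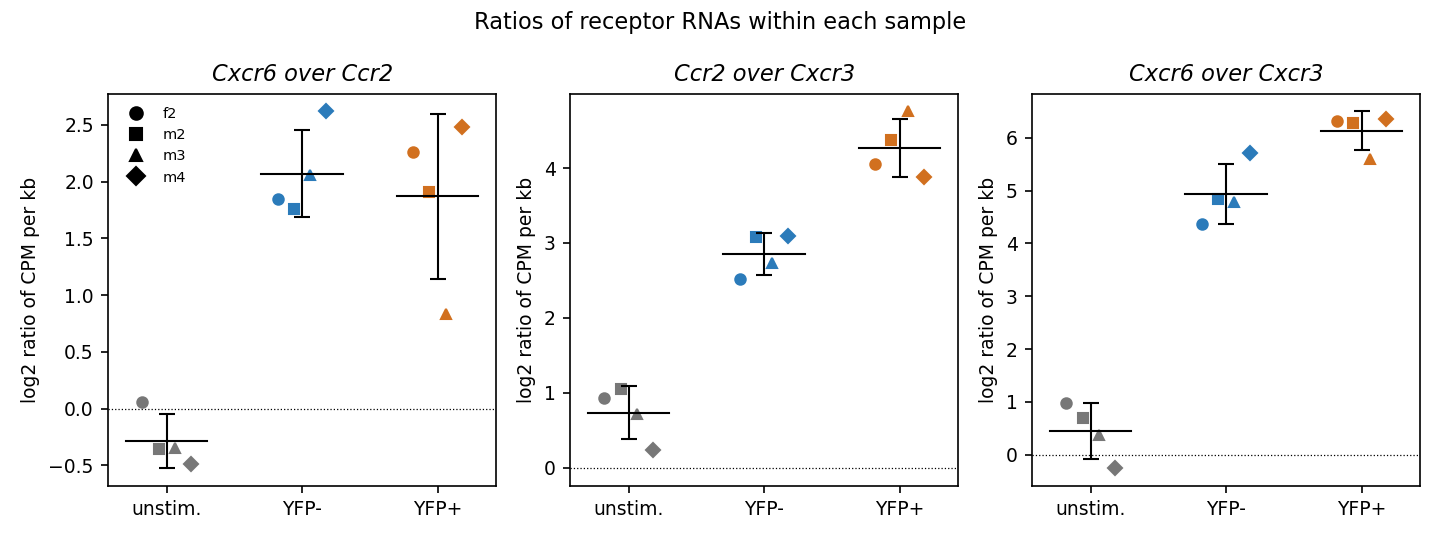
Log2 ratio of CPM per kb between pairs of receptors (y axes) in each of the 12 samples, by group; symbols mark the replicate label, black bars the mean and SD, and the dotted line a ratio of 1. Cxcr6 over Ccr2 was at most 0.06 in unstimulated samples and at least 0.83 in stimulated ones, and Ccr2 over Cxcr3 was higher at each step without overlap.

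By the likeness of log2 CPM over the 12 samples (Pearson r among tested genes with a mean of at least 2), the genes nearest to Ccr2 were Tbc1d10c (r = 0.997), Nfic (r = 0.996) and Mettl27 (r = 0.996). Those nearest to Cxcr3 were Isoc2b (r = 0.997), Nrm (r = 0.995) and Pik3cd (r = 0.995). For Cxcr6 they were Coq8a (r = 0.982), the inhibitory receptor gene Cd200r1 (r = 0.981) and Ldlrad4 (r = 0.973). For Ccrl2 they were the sphingosine-1-phosphate receptor gene S1pr2 (r = 0.985) and Mfsd6 (r = 0.973). For Ccr7 r was lower, at 0.924 for Bloc1s5, 0.902 for the TNF receptor adaptor gene Traf2 and 0.901 for Ptdss2. The 12 points fall into 3 groups and share library composition, so r in part restates the group means. With group means removed, r for these genes ran from 0.738 (Cxcr3 and Pik3cd) to 0.963 (Ccrl2 and S1pr2). The genes were picked for their high r, so these values are a description. Cd200r1 is also on the ILC1 marker list.

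Of 16 other chemokine receptors described here, Xcr1 passed the filter. It lies in the chromosome 9 receptor cluster that also holds Cxcr6 and Ccr2. Xcr1 (chr9:123852315-123862029, - strand), the receptor for Xcl1, lies beside Fyco1, the gene that holds Cxcr6, and like Cxcr6 was highest in YFP- cells. Its mean log2 CPM was 0.57 ± 0.55, 2.24 ± 0.28 and 0.85 ± 0.26 in unstimulated, YFP- and YFP+ samples. Xcr1 rose by 1.67 on the log2 scale from unstimulated to YFP- (SE 0.27, limma adjusted p = 0.00020), and changed by -1.39 from YFP- to YFP+ (SE 0.27, limma adjusted p = 0.0026). Ccr1, Ccr1l1, Ccr3 and Ccr9, which also lie in the cluster, averaged at most 0.413 CPM in any group.

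Of the 12 ligands of the 7 receptors, 3 passed the filter: Cx3cl1, Cxcl16 and Cxcl10. No unstimulated library was above 0.954 CPM for any of these ligands, so they passed only through stimulated libraries. The filter itself thus favoured a rise against unstimulated cells, and the rises are given as a description. All 3 were called higher in YFP- cells against unstimulated cells, where 30.2% of all tested genes were. The median log2 change of the ligands was 2.95, against 0.14 for all tested genes. Cx3cl1, the ligand of Cx3cr1, went from 0.0506 CPM in unstimulated to 2.84 CPM in YFP- and 1.80 CPM in YFP+ cells, with log2 changes of 6.18 and 5.56 against unstimulated (SE 0.72, limma adjusted p = 1.3e-05 and 1.5e-05). Cxcl16, the ligand of Cxcr6, went from 0.225 to 1.38 and 2.01 CPM, with log2 changes of 2.95 and 3.46 (SE 0.63, limma adjusted p = 0.0015 and 0.00029). Fitted changes of genes this low depend on the prior count.

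Cxcl10, a ligand of Cxcr3, was at 0.651, 4.49 and 0.473 CPM. It rose by 2.82 on the log2 scale in YFP- cells (SE 0.66, limma adjusted p = 0.0029) and was lower in YFP+ than in YFP- cells by a log2 change of -3.75 (SE 0.66, limma adjusted p = 0.0013). In YFP+ against unstimulated cells 2 of the 3 rose (median 3.46), where 27.5% of all tested genes were called higher (median -0.03). Between the sorted populations 1 fell (median -0.62), where 18.5% were called lower (median -0.19). That 1 was Cxcl10, which passed the filter through YFP- libraries alone, as no other library was above 0.954 CPM. Ccl21a was at 0 reads in all 12 libraries, and Cxcl12 averaged at most 0.112 CPM in any group.

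Among 22 genes of chemokine receptor signalling, all of which were tested, 2 rose and 14 fell in YFP- cells against unstimulated cells, with a median log2 change of -0.57. In YFP+ cells 1 rose and 16 fell, with a median of -0.85. Against 20.9% and 33.3% of all tested genes called lower, these were 14 and 16 of 22. The genes with the largest changes in YFP- cells were Pik3cg, the catalytic subunit of phosphoinositide 3-kinase gamma, at -1.78 (SE 0.23, limma adjusted p = 3.8e-05), Arrb1 (beta-arrestin 1) at -1.67 (SE 0.15, limma adjusted p = 1.4e-06), and Grk6, a receptor kinase, and Prex1, a Rac exchange factor, both at -1.50. In YFP+ cells they were Arrb1 at -3.25, Pik3cg at -2.85, Arrb2 (beta-arrestin 2) at -2.57 and the inhibitory G protein gene Gnai2 at -2.18, all with limma adjusted p of at most 9.01e-07. Pik3r6, a regulatory subunit of the same kinase, rose in both comparisons (log2 changes 1.44 and 1.31), and Rhoa rose in YFP- cells (0.38). These last 2 genes were named after their values were seen.

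Between YFP- and YFP+ cells 11 of the 22 signalling genes were lower and 0 higher, with a median log2 change of -0.41 against -0.19 for all genes, of which 18.5% were called lower and 3.28% higher. Arrb1 and Arrb2 changed by -1.58 and -1.57 (SE 0.15 and 0.21, limma adjusted p = 1.4e-05 and 0.00018), Pik3cg by -1.07 (limma adjusted p = 0.0054) and Cdc42, a small GTPase of cell polarity, by -0.92 (limma adjusted p = 0.047). The count fell to 5 after trimmed-mean scaling and to 4 after centring on the median gene, and was 5 without replicate f2 or m2 and 6 without m3 or m4. Of all 12364 tested genes 2691 passed as deposited, 2849 after trimmed-mean scaling and 2996 after centring. Without a replicate label 1571 to 2178 of them passed. Arrb1, Arrb2 and Pik3cg passed under all 16 settings run, and Cdc42 under 7.

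Of 12 other trafficking receptors 6 were tested. In YFP- cells 2 rose and 3 fell against unstimulated cells (median -0.45), and in YFP+ cells 2 rose and 4 fell (median -2.10). Of all tested genes 51.1% and 60.8% were called in these comparisons. C5ar1, the receptor for complement C5a, rose from 0.308 CPM to 41.7 CPM in YFP- and 39.4 CPM in YFP+ cells, log2 changes of 7.21 and 6.67 (SE 0.64, limma adjusted p = 1.5e-06 and 1.0e-06). Ltb4r1, a leukotriene B4 receptor, fell in both, with log2 changes of -3.04 and -3.80 (SE 0.18, limma adjusted p = 3.7e-08 and 1.8e-09). S1pr5, the sphingosine-1-phosphate receptor used in NK cell egress, fell likewise, at -1.88 and -4.08 (SE 0.48, limma adjusted p = 0.0054 and 7.1e-06), and the related S1pr4 changed by -2.65 in YFP+ cells (limma adjusted p = 1.1e-07). Ptger4, a prostaglandin E2 receptor, rose by 1.32 in YFP- cells (limma adjusted p = 2.1e-05). C5ar1 passed the filter only through stimulated libraries, as unstimulated ones were at most at 0.525 CPM. S1pr5 passed only through unstimulated libraries, with YFP- at most at 0.925 CPM and YFP+ at most at 0.369 CPM. The filter itself thus favoured their changes against unstimulated cells, which are given as a description. The counts above include both genes. Between YFP- and YFP+ cells 5 of the 6 were lower and 0 higher (median -1.11), where 18.5% of all tested genes were called lower, with S1pr5 at -2.20, Gpr183, an oxysterol receptor, at -1.84, S1pr4 at -1.46 and Ltb4r1 at -0.76, all with limma adjusted p of 0.0073 or less.

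**Figure D5:**
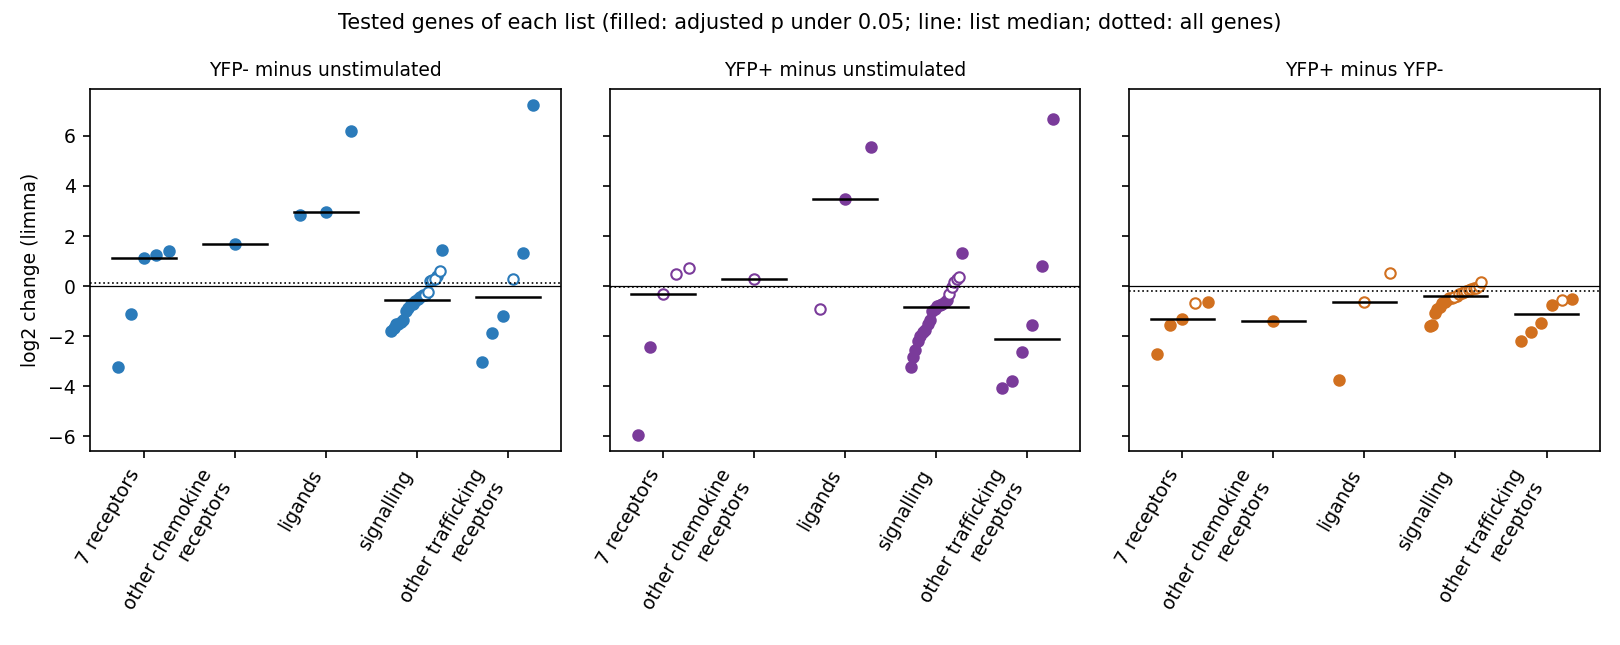
Log2 change (y axis, limma) of every tested gene of the 5 lists (x axis) in the 3 comparisons; filled points have an adjusted p under 0.05, lines are list medians and the dotted line the median of all tested genes. In YFP+ minus YFP- no gene of any list was called higher, where 3.28% of all tested genes were. In YFP- minus unstimulated 14 of the 22 signalling genes were called lower, where 20.9% of all tested genes were.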

How the data were processed

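RNA was sequenced from 12 NK cell samples in 3 groups of 4. Per the labels' protocols, libraries started from 10 ng of RNA, amplified with a SMARTer Ultra Low kit, and were read as 150-base pairs. Per the submitters' processing notes, STAR 2.7.9a and featureCounts 2.0.3 were used with GRCm38. A single deposited table holds log2 CPM as the authors moderated them, in which other values (identifiers, symbols, descriptions) accompany each feature. Of its 55774 lines 287 were repeats and were dropped, and 0 per-sample columns belonged to no sample. Whole reads and library totals were recovered from the deposited log2 CPM, whole within 0.01 reads for 100% of values. The kit does not mark strand.

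Genes whose log2 CPM exceeded 0 in 4 or more samples were fitted with limma 3.58.1 (R 4.3.3; group means, all 12 samples, trended variance), with Benjamini-Hochberg adjustment over 12364 genes and a threshold of 0.05. Fits were tested on simulated data. Receptors below the filter, or whose call moved, had a two-sided exact permutation test over 70 splits (scipy 1.17.1). Positions come from GENCODE M21 and promoters from RefSeq, both on GRCm38. The 7 receptors and all gene lists were chosen with earlier results of these data known. Genes named: all 7 receptors, at most the 4 called genes with the largest change per other list and comparison, and the 3 genes most like each tested receptor; a few genes that these rules or lists cover are not reported here. Alternatives were a replicate block, 8-sample fits, no filter and a filter at 2, a pseudocount of 1 CPM, quantile, centring and trimmed-mean scaling, totals without 359 ribosomal RNA-like features, voom weights, and leaving out each replicate label or, chosen after seeing the data, the YFP+ m3 library, and each single library for folds of Cxcr4 and Cx3cr1.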

Additional observations from a re-analysis of the deposited data

Results flagged for a closer look

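Cxcr6 in the YFP+ m3 library stood apart from the other 3 YFP+ libraries: its log2 CPM of 4.27 was separated from the next by 0.838 of the range of the group, above Dixon's 95% limit for 4 samples. Chance gives such a gap in about 5% of groups, and 21 sets of 4 values were examined, 1 of which passed. The same library was also the lowest of its group for Ccrl2 (3.72), Ccr7 (-0.25) and Cxcr3 (-1.43), and 29.8% of its reads were ribosomal RNA-like, against 13.7 to 23.1% in the other 3 YFP+ libraries. The part of that share in the Cxcr6 value was not tested.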

How the results depend on the processing

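Of the 15 receptor changes tested, 11 kept their direction and their call under every one of the 15 alternatives that gave them a value (the stricter filter removed Ccr7): every change of Ccr2 and Cxcr3, those of Ccr7, Ccrl2 and Cxcr6 in YFP- cells against unstimulated cells, and those of Cxcr6 and Ccr7 between YFP- and YFP+ cells. The log2 changes of Cxcr3 ran from -3.50 to -2.87, -6.14 to -4.47 and -2.92 to -1.56, and those of Ccr2 from -1.39 to -0.99, -2.64 to -2.32 and -1.39 to -1.07, in the order YFP- and YFP+ against unstimulated and YFP+ against YFP-. The change of Cxcr6 in YFP+ against unstimulated cells ran from -0.44 to 0.03 when replicate labels were left out in turn, and was 0.061 without the YFP+ m3 library. The cause was not tested.

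Against unstimulated cells, 2 receptors passed in YFP+ cells, but 4 with no filter (then including Cxcr4 and Cx3cr1). The count was also 4 after quantile normalisation, after median centring and without the YFP+ m3 library. It was 2 to 4 when replicate labels were left out in turn (4 without m3). Of all 12364 tested genes 7522 passed in that comparison, 7852 after quantile normalisation, 7907 after median centring and 7791 without the YFP+ m3 library. With no filter 8567 of 37074 features passed. Between YFP- and YFP+ cells, the 11 signalling genes became 6 in a fit of the 8 samples alone, 7 with no filter or after quantile normalisation, 4 after median centring, 5 after trimmed-mean scaling or with voom weights, 5 to 6 without a replicate label and 8 without the YFP+ m3 library. Over all genes 2691 passed there, and 1571 to 2178 without a replicate label (1571 without m2, 1643 without m4), 2397 without the YFP+ m3 library. Of all 12364 tested genes 1956 passed in the 8-sample fit, 2593 after quantile normalisation and 2996 after median centring. After trimmed-mean scaling 2849 passed, with voom weights 2929, and with no filter 2277 of 37074 features. The stricter filter left 0 other receptors called in YFP- cells and 0 between the sorted populations, and 0 ligands in any comparison, since it removed them from the test. With no filter 3 other receptors passed in YFP- and 1 in YFP+ cells against unstimulated cells, and 4 ligands in YFP+ cells.

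Same-label samples did not deviate together in every pair (correlations of their deviations from the group means from -0.06 to 0.38). Between YFP- and YFP+ samples all of these correlations were positive, from 0.05 to 0.37. The own label correlated best in 12 of 24 cases, with 4 labels to choose from in each. The main fit did not take the labels as pairs, and whether same-label samples are paired was not tested. With the replicate label as a block, 6682, 7774 and 3098 genes passed against 6321, 7522 and 2691, and 5, 3 and 4 receptors, the added one being Ccrl2 in YFP+ against unstimulated cells (limma adjusted p = 0.0243). Depth limited Cxcr4 and Cx3cr1, whose YFP+ libraries held 0 to 10 reads.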
